A study of Arabidopsis thaliana with 4 samples.

Results

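A downstream-only site is a stretch behind a gene that AGAMOUS (AG) occupied while the gene itself and the DNA in front of it carried no listed peak. In the authors' deposited target table, 336 of 1958 genes (17.2%) had a peak score above 0 within 1000 bp of the 3' end and a score of 0 in each of the 4 other regions. Those regions are the gene body and the stretches 0 to 1000, 1000 to 2000 and 2000 to 3000 bp upstream of the 5' end. The genes were thus chosen by the scores themselves. A further 42 genes had a downstream site together with another region and were set apart. The table was made from chromatin immunoprecipitation and sequencing with the anti-GFP antibody AB290 on Arabidopsis inflorescences of the Ler-0 background. The AG-GFP plants (2 libraries) carried the GFP-tagged protein and AP1-GR in ap1 cal, and the negative control plants (2 libraries) carried AP1-GR in ap1 cal without the tag. A different series shares the control library of replicate 1. In this system dexamethasone activates the AP1-GR fusion, driven by the 35S promoter in ap1-1 cal-1 plants, so that many meristems start flowers together. All plants of both groups received it and were taken 4 days later, at about floral stages 4 to 5. The tables give 1 score per peak for the whole series and no value per library, so no score below carries a replicate error and the sequencing depth is unknown.

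AG is a MADS-domain transcription factor that specifies stamens and carpels and ends the activity of the floral meristem. MADS-domain proteins bind DNA as pairs at a motif called the CArG box, and such sites are known in front of genes, in introns and behind genes. Arabidopsis genes lie close together, so the DNA behind one gene is often the DNA in front of the next. A peak can therefore enter the table once as a downstream site and again as the upstream site of a neighbour, and position alone does not say which gene a site acts on. In whole inflorescences, a site used in few cells and a site used weakly in many cannot be told apart by its score.

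Of the 336 genes, 5 encode microRNAs, and their mature products are shown because pairing along the mature sequence decides which messenger RNAs a plant microRNA restrains. Their sequences stand in the authors' deposited gene descriptions, here written 5′ to 3′ with bases 2 to 8, the seed, in capitals.
MIR167a: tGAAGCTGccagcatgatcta
MIR166c: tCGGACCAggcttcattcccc
MIR403: tTAGATTCacgcacaaactcg
MIR399c: tGCCAAAGgagagttgccctg
MIR418: tAATGTGAtgatgaactgacc
All 5 seeds differ.

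Of the 10 genes with the highest downstream-only scores, 9 had a peak that was also an upstream site of another target gene. The same held for 67.0% of the 330 downstream-only genes that could be linked to a peak. Over all 1922 linked target genes it held for 56.7%, by their highest peak. The top score, 5695.79, was that of EMB1967 (AT3G54350), a gene named for its embryo-defective mutant. Its peak, on chromosome 3 from 20120922 to 20121669 (TAIR10), was listed within 1000 bp upstream of AP3, the petal and stamen identity gene. The RefSeq gene spans did not settle the order of this pair. The next, 2992.89, was that of AT3G13950, a gene of unknown function. Its peak, at 4605891 to 4606526 on chromosome 3, lay 2000 to 3000 bp upstream of GRF5, which encodes a growth-regulating transcription factor. Both scores equalled the highest score of the partner gene.

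The next 4 genes in score were a kinase gene, an enzyme gene, a transporter gene and a receptor kinase gene. AT3G26700, annotated as a protein kinase, scored 2578.0 for a peak on chromosome 3 from 9812707 to 9813181. It lies within 1000 bp upstream of CCB1 (AT3G26710), which acts in assembly of a photosynthetic cytochrome complex. OMR1 (AT3G10050), which encodes the first enzyme of isoleucine synthesis, scored 2363.18 and shared its peak with AT3G10040, annotated as a transcription factor. AT3G17340, annotated as a protein transporter, scored 1870.5 and shared its peak with ECT6 (AT3G17330), which encodes a protein of the YTH family of RNA-binding proteins. AT1G67720, annotated as a leucine-rich repeat kinase, scored 1691.62 and shared its peak with KCR1 (AT1G67730), a gene for the synthesis of very long fatty acids. In all 4 pairs the peak was listed within 1000 bp upstream of the partner. The RefSeq gene spans did not settle the order for OMR1, AT3G17340 and AT1G67720.

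The remaining 4 of the 10 had scores between 1136.92 and 1290.39. AT5G61100, annotated for zinc ion binding, scored 1290.39 and its peak lay 1000 to 2000 bp upstream of AT5G61090, annotated as a proline-rich protein. DGAT1 (TAG1, AT2G19450), which encodes the acyltransferase of the last step of oil synthesis, scored 1172.63. Its peak lay 1000 to 2000 bp upstream of AT2G19460, a gene of unknown function. NIK1 (AT5G16000), a receptor kinase gene known from antiviral defence, scored 1136.92 and shared its peak with the upstream stretches of AT5G16010 and AT5G16020. NAC055 (AT3G15500), a NAC-domain transcription factor gene known from jasmonate and abscisic acid responses, had the same score as AT5G61100 at another peak, on chromosome 3 from 5236656 to 5236939. It was the exception among the 10, with a peak listed for no other gene.

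**Figure D1:**
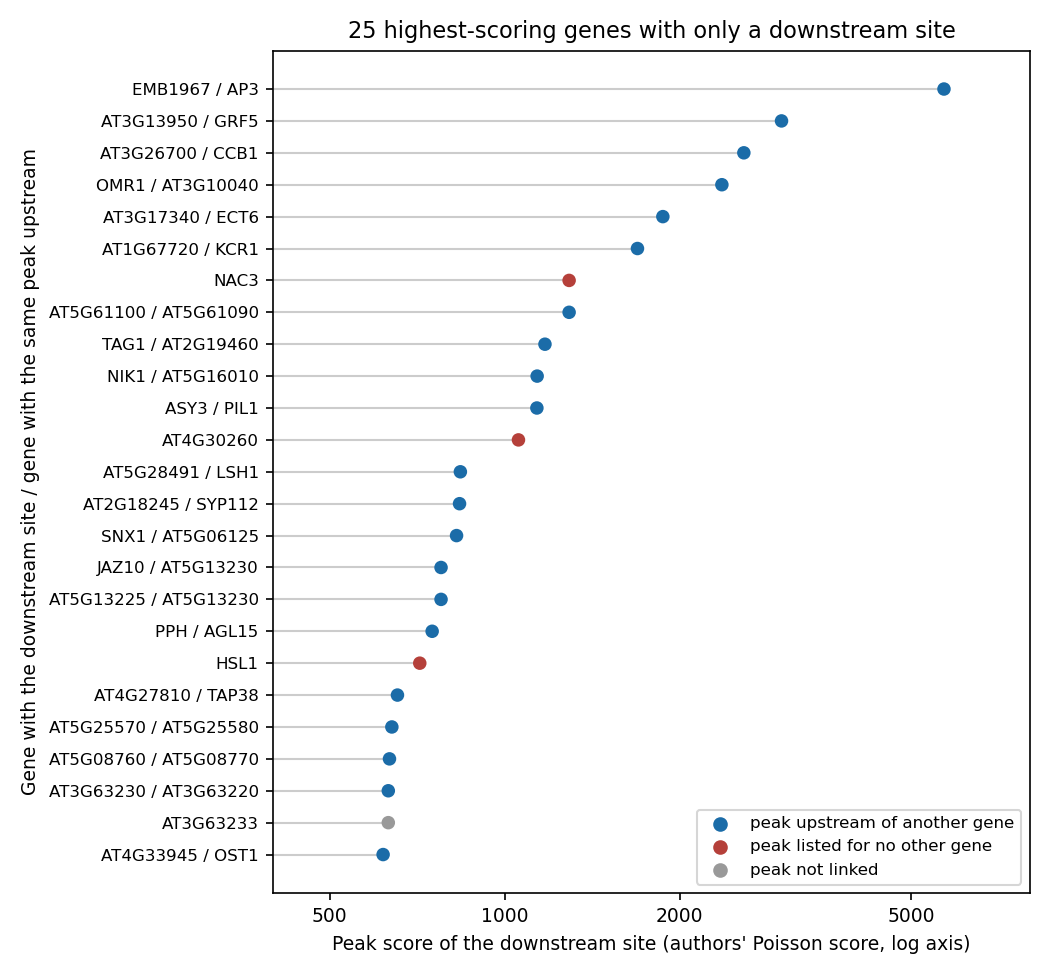
Peak score (log axis) of the 25 highest-scoring genes with only a downstream site, 1 point per gene, with the gene that has the same peak upstream after the slash. EMB1967, paired with AP3, stands at 5695.79, and NAC3 (NAC055), AT4G30260 and HSL1 are those whose peak was listed for no other gene.

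Most downstream-only genes had ordinary scores. Their median was 133.69 (quartiles 72.68 and 240), against 148.96 (quartiles 81.04 and 296) for the highest scores of the other 1622 target genes. A score of at least 1000 was found for 12 of the 336, at least 500 for 34, and at least the median peak score of 139.67 for 161. The rule used these scores, so they are given as a description. The lowest scores were 38.14 for AT3G12970 and AT3G27990, 40.05 for the calmodulin-binding protein gene CAMBP25, 40.54 for AT5G42770 and 41.45 for AT3G01130. The lowest score in the whole peak list was 36.35, and a gene with no listed downstream peak has a downstream score of 0. The 42 genes with a downstream site and another region had downstream scores from 44.86 to 476.24, with a median of 143.81. Of these, 17 had their other site inside the gene, among them, chosen after their values were seen, TGA9, an anther gene (376.22 downstream and 266.42 inside), and MYB95 (469.06 and 574.51).

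The 330 genes that could be linked to a peak by score and position rested on 310 peaks. The widths of these peaks had a median of 223 bp and ran from 51.0 to 846 bp, against a median of 234 bp and a range of 51.0 to 7045 bp for all 1421 peaks. A peak was shared by 2 downstream-only genes in 20 cases and by more in 0. The other 6 genes are not in the RefSeq gene table and were left unlinked. The label was checked against that table. For 303 of the 330, the peak position lay beyond the RefSeq gene span, and for 27 it lay within it. Among these 27 are AT3G17340, CRF1, CYCD3;2 and AT3G27990, which are named in other paragraphs. By chromosome, downstream-only genes made up 14.7% of the targets on chromosome 1, 15.4% on 2, 20.6% on 3, 13.2% on 4 and 20.2% on 5.

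About 2 in 3 downstream-only genes shared their peak with the upstream stretch of another target gene. By score and position, a link added after the repeated scores were seen, this held for 221 of 330 genes (67.0%, 95% exact Clopper-Pearson interval 61.6 to 72.0%). Over all 1922 target genes with a linked peak, 56.7% had their highest peak listed upstream of another gene, and for the targets other than the downstream-only genes the share was 54.5% (868 of 1592). Over all downstream sites with a linked peak, most of them those of the downstream-only genes, it was 66.0% (245 of 371). Since the downstream-only genes make up most of that set, its share cannot show whether they differ from other downstream sites. The interval covers counting error only and ignores that 1 peak can stand for several genes. Among the downstream-only genes, the share was 73.1% for the 160 at or above the median peak score and 61.2% for the 170 below it. The differences between these shares were not tested. Matching by the score alone, on the same chromosome, gave 297 of 336 (88.4%, interval 84.5 to 91.6%). In that count unrelated genes are matched as well, since 1047 of the 1421 peaks had a score that another peak also had.

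The shared peak was most often within 1000 bp of the nearest partner. Nearest here means the nearest listed stretch of 1000 bp, and ties within a stretch were settled by gene number, not by distance. Of the 221, 143 (64.7%) had it within 1000 bp upstream of the nearest partner, 49 (22.2%) at 1000 to 2000 bp and 29 (13.1%) at 2000 to 3000 bp. In 209 (94.6%) the shared peak held the nearest partner's highest score, and in 200 (90.5%) that partner had a score in no other region. Over all targets, 1808 of 1958 genes (92.3%) had a score in 1 region only, so the share of 90.5% does not set the partners apart. A partner with a score in 1 region only has the shared peak as its highest by definition. Little can therefore be read from the 94.6%. More than 1 gene had the peak upstream in 52 cases. In 140 pairs (63.3%) the peak lay between both genes, so that the genes follow each other on the same strand. In 34 pairs (15.4%) both genes lay on the same side of the peak and on opposite strands, and for 47 the order was not determined. Strands were read from the side on which a listed region lies, since the gene table holds none. An order stayed undetermined where the peak position fell within the RefSeq span of either gene, or the partner was not in that table. The pair of EMB1967 and AP3 is among these.

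**Figure D2:**
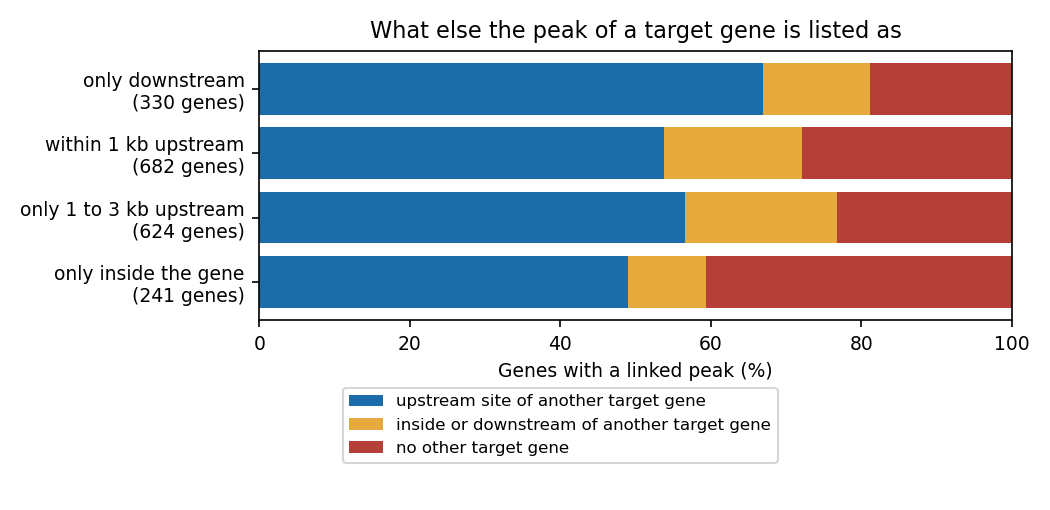
Share of target genes (%) whose peak was also an upstream site of another target gene, was inside or downstream of another one, or was listed for no other one, by the region of the gene's own site. The shares with an upstream site elsewhere are 67.0% for genes with only a downstream site, 53.8% for sites within 1 kb upstream, 56.6% for sites only 1 to 3 kb upstream and 49.0% for sites only inside the gene. Genes with a site within 1 kb upstream may have sites in other regions too, unlike the other groups.

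By score alone, the peak score was in no other row of the chromosome for 15 of 336 genes (4.46%), and 33 of 330 (10.0%) had no other protein-coding gene within 3000 bp of the peak. By score and position, a peak was listed for no other target gene in 62 of the 330 linked genes (18.8%, interval 14.7 to 23.4%), against 27.9% of 682 genes with a site within 1 kb upstream, 23.2% of 624 with sites only 1 to 3 kb upstream and 40.7% of 241 with sites only inside the gene. Genes with a site within 1 kb upstream may have sites in other regions too, unlike the other groups. These differences were not tested. A stretch behind a gene, a stretch in front and the gene body also differ in length and in distance to the next gene.

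Of the 94 genes in 5 lists of floral and leaf regulators, 50 were targets, of which 4 were themselves downstream-only and 7 (14.0%) had an upstream peak shared with a downstream-only gene. Over all targets, 272 of 1958 (13.9%) had such a shared peak, so the share in the lists was near the background. Beside AP3 and GRF5, these were EMS1, TPD1, SERK1, VDD and CUC1. EMS1, the receptor kinase gene that sets anther cell fate, shared its peak of 403.5 with XBAT33 (AT5G07270), an ankyrin repeat gene. TPD1, the gene of its ligand, shared one of 266.42 with AT4G24970, annotated as an ATPase-like protein. SERK1, which encodes a co-receptor of EMS1, shared one of 143.81 with SEC6, a gene of the exocyst complex for secretion. VDD, an ovule gene, shared a peak of 351.68 with the auxin-responsive gene SAUR19 and the transfer RNA gene AT5G18005. CUC1, an organ boundary gene, shared a weak peak of 58.44 with AT3G15160. The peaks at EMS1, VDD, SERK1 and CUC1 lay within 1000 bp upstream and that at TPD1 lay 1000 to 2000 bp upstream.

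Further partners, chosen after their values were seen, were regulators outside these lists. PPH (AT5G13800), which encodes a chlorophyll breakdown enzyme, had a downstream score of 750.09. That peak lies within 1000 bp upstream of AGL15, a MADS-box gene. ASY3 (AT2G46980), a gene of the meiotic chromosome axis, had 1135.72, from a peak 1000 to 2000 bp upstream of the bHLH gene PIL1. AT1G14770 had 365.61 beside KNATM, a KNOX-related gene, and AT3G03460 had 396.63 beside RGL2, a DELLA repressor gene of gibberellin signalling. AT4G33945 had 617.66 beside OST1, a kinase gene of abscisic acid signalling. In these 5 pairs the shared score was the partner's highest. By contrast, MIR399c had 72.68 at a peak 1000 to 2000 bp upstream of the MADS-box gene AGL42, whose highest score was 351.68 at another peak.

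The 4 list genes that had only a downstream site were JAG, CUC2, DAD1 and TCP4. JAG (AT1G68480), a zinc finger gene that promotes growth of lateral organs, scored 327.59 on chromosome 1 from 25683845 to 25684217. Its peak was listed for no other gene. CUC2 (AT5G53950), a boundary gene like CUC1, scored 152.42, and its peak, on chromosome 5 from 21900884 to 21901077, lay 2000 to 3000 bp upstream of AT5G53940, a yippee family gene. DAD1 (AT2G44810), a jasmonate synthesis gene of stamens, scored 47.19 on chromosome 2 from 18480593 to 18480675 and shared its peak with no other gene. TCP4 (AT3G15030), a gene that limits leaf growth, also scored 47.19, at another peak, on chromosome 3 from 5064323 to 5064418. That peak was also downstream of AT3G15040. Only JAG and CUC2 were above the median peak score. By list, downstream-only targets were 0 of 9 floral organ identity targets, 0 of 13 floral meristem and flowering targets, 1 of 9 stamen, 1 of 7 carpel and 2 of 12 leaf targets. Over all targets the rule itself gives 17.2%, and nothing is read from these small counts.

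Genes with a peak listed for no other gene were of mixed kinds. Of the 62, 9 were described as transcription factors or DNA-binding proteins, against 34 of all 336 downstream-only genes. Genes of unknown function were 12, against 80. After NAC055, the highest were 1055.81 at AT4G30260, annotated as a Yip1 membrane protein, and 714.19 at HSL1, a HAESA-like receptor kinase gene. Next came 591.16 at IMS2 (MAM3), a gene of glucosinolate synthesis, and 359.36 at AT1G29630, annotated as a nuclease. MIR167a, which restrains ARF6 and ARF8, had 358.33 on chromosome 3 from 8109364 to 8109689. CRF1 (AT4G11140), an AP2-domain gene of the cytokinin response factors, had 338.48, and JAG had the value above. DRT111 had 295.51 and AT1G17410, annotated as a nucleoside diphosphate kinase, 285.02. Chosen after their values were seen, the D-type cyclin genes CYCD3;3 and CYCD3;2 had 138.72 and 92.65. The score of CYCD3;3 recurred in a row of the same chromosome that could not be linked, so that its peak may be listed for another gene too. The peak positions of CRF1 and CYCD3;2 lay within their own RefSeq gene spans. The cell expansion gene COB had 210.92, the boundary gene LOB 173.69 and FPF1, which promotes flowering, 152.42. Median scores were 126.79 for these 62 genes and 143.81 for the 221 whose peak was upstream of another gene.

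For 14 of the 62 another target gene lay within 3000 bp of the peak but was listed with another score. The table keeps only the highest score per region, so a weaker peak in the same region is not shown. AT4G30260 and DRT111 are among these 14, and the neighbour of DRT111 is PHV (AT1G30490), a leaf polarity gene. For 9 of the 62 the score recurred in a row of the same chromosome that could not be linked. With both kinds left out, 42 genes (12.7% of 330, interval 9.33 to 16.8%) met neither condition.

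**Figure D3:**
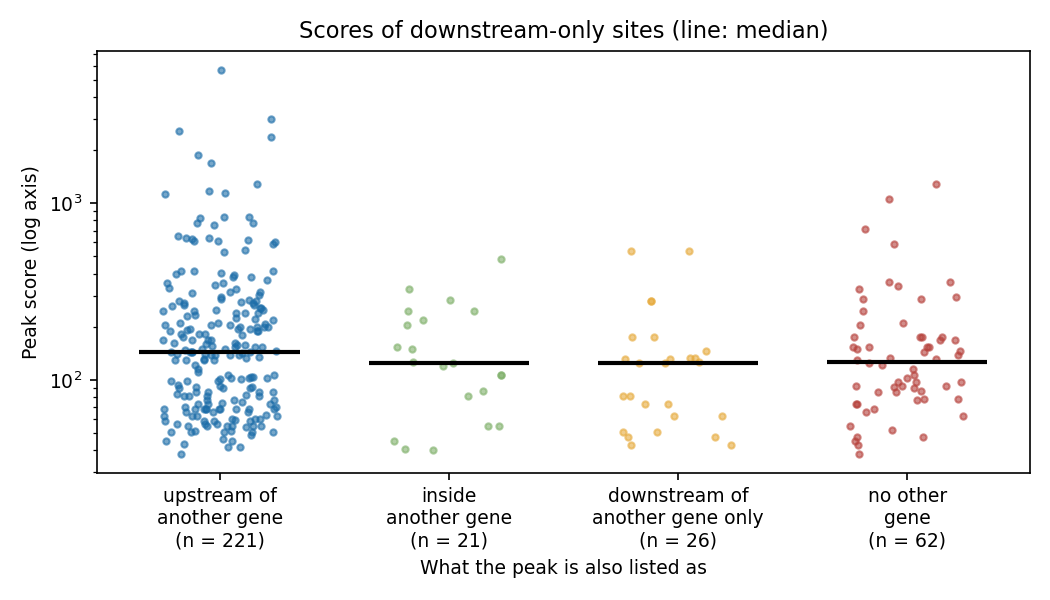
Peak scores (log axis) of the 330 linked genes with only a downstream site, 1 point per gene, by what the peak is also listed as, with the median as a line. The medians are 143.81 upstream of another gene, 123.8 inside another gene, 123.73 downstream of another gene only and 126.79 for no other gene, and the groups overlap.

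For 43 of the 330 linked genes (13.0%) the peak was also downstream of another gene. For 26 of these genes, on 14 peaks, it was upstream of or inside no other gene. In 22 of the 26 both genes faced the peak from opposite sides, and for the other 4, in 2 pairs, the order was not determined because the side of 1 gene of the pair is unknown. The pairs named here, apart from TCP4, were picked with their values in view. The highest among the 26 were AT5G10990, annotated as auxin-responsive, and AT5G11000, which shared a peak of 540.04. Genes facing a peak from opposite sides also occurred outside the 26. JAZ10 and AT5G13225 shared such a peak of 776.99, which was upstream of AT5G13230 as well. The related kinase genes CIPK15 and CIPK14 (AT5G01810 and AT5G01820), which act in calcium signalling, shared one of 280.28 on chromosome 5 from 312224 to 312583. The bHLH gene BHLH32 (TMO5), known from vascular development, shared a peak of 133.69 with the transfer RNA gene AT3G25715. CLE25, a gene for a signalling peptide of the CLAVATA3 family, shared one of 72.68 with AT3G28450, annotated as a receptor-like kinase. TCP4 and AT3G15040 belong to the 26 as well. For 21 genes outside the 26 the peak lay inside another target gene and upstream of none. The highest of these, likewise chosen after its value was seen, was NUDT3, with 483.44, whose peak was inside AT1G79700, annotated as an ovule development protein. AT4G28200 had 81.04 at a peak inside ULT1, which limits meristem size.

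The classes of gene were compared as shares, with no test. Of 336 genes, 34 (10.1%) were described as transcription factors or DNA-binding proteins, against 228 of 1622 other targets (14.1%). Enzymes of metabolism were 52 (15.5%), against 186 (11.5%). Genes of unknown function numbered 80 (23.8%), against 344 (21.2%), and genes with no description 19 (5.65%), against 78 (4.81%). The shares for kinases and receptors (15 genes, 4.46% against 4.07%), transporters (10 genes, 2.98% against 2.65%), F-box and ubiquitin genes (16 genes, 4.76% against 3.58%) and cell wall genes (10 genes, 2.98% against 2.59%) differed by fewer percentage points than those of transcription factors and enzymes. The remaining described genes, which no keyword placed, were 83 (24.7%), against 499 (30.8%), and this was the widest gap in percentage points. Transcription factors were 14.0% of the 214 nearest upstream partners (30 genes). The classes rest on keywords, and a gene such as JAZ10, a jasmonate repressor gene with 776.99 named after its value was seen, fell into the unknown class because its description gives only similarities.

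**Figure D4:**
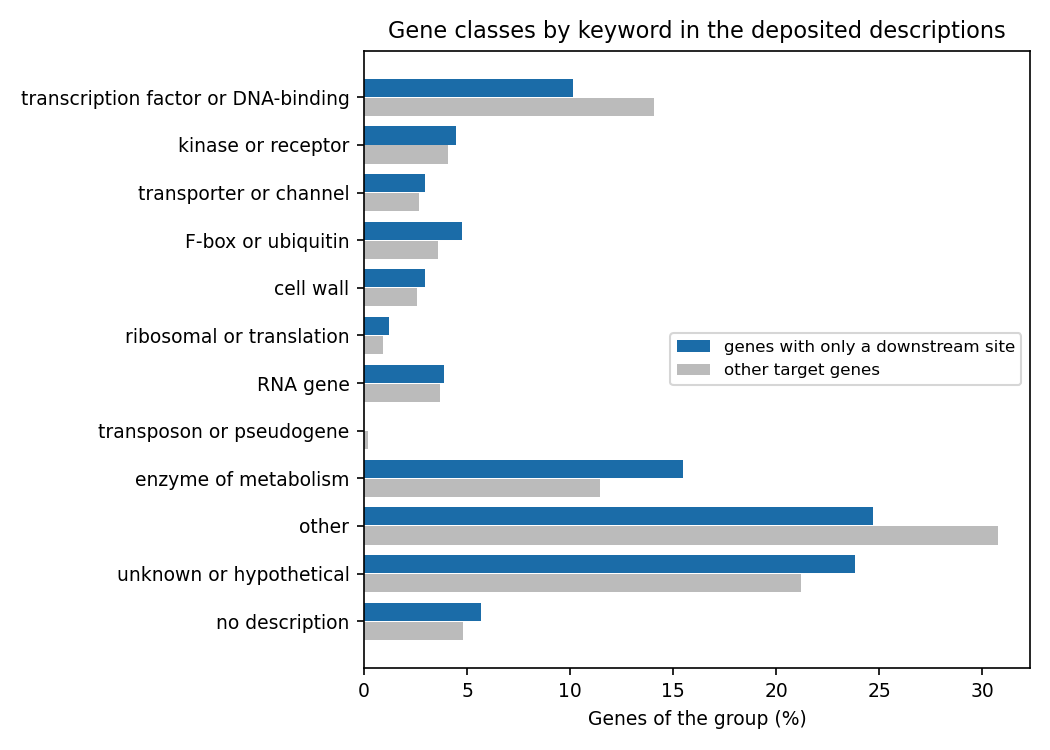
Share of genes (%) in each keyword class, for the 336 genes with only a downstream site and, below each, the other 1622 target genes. Transcription factors are 10.1% against 14.1% and enzymes of metabolism 15.5% against 11.5%.

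The transcription factor genes had a median score of 105, below the 147 of all transcription factor targets. Of the 34, 20 shared the peak with the upstream stretch of another gene and 9 had it listed for no other. Over the 330 linked downstream-only genes of all classes, these counts were 221 (67.0%) and 62 (18.8%). The highest transcription factor genes after NAC055 were AT3G12977, a NAC-related gene with 602.34, CRF1 and JAG. AT3G12977 shared its peak with HAC5, a histone acetyltransferase gene. DDF2, a DREB-type gene, had 285.02, the homeodomain gene HB5 174.35 and the B-box gene COL5 144.72, all with peaks listed for no other gene. AT1G09250, described as a transcription factor, had 148.96. A score of 138.72 was given to AT1G63490, annotated with a jumonji domain, to bZIP48 and to MBF1B. Kinase and receptor genes had the highest median of the classes with 10 or more members, 275, against 174 for all targets of this class. This rests on 15 genes, of which 8 had a peak upstream of another gene. The keywords also placed the cyclin gene CYCD3;2 in this class. In enzymes the median was 186, and 38 of 52 genes shared their peak in this way.

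RNA genes were 13 of the 336 by their descriptions (3.87%, against 3.70% of the other targets), among them 5 microRNA genes and 4 transfer RNA genes. Of the microRNA genes, MIR167a had the highest score, given above. MIR166c, which restrains the class III HD-ZIP genes of organ polarity, had 199.53 on chromosome 5 from 2839081 to 2839370. The same peak lay 1000 to 2000 bp upstream of MIR166d, whose highest score was 382.99 at another peak. MIR403 had 158.45, MIR399c 72.68 and MIR418 68.54, and for each of these 3 the peak was also upstream of another gene. TAS2 (AT2G39681), a source of trans-acting small RNAs chosen after its value was seen, had 128.71 at a peak within 1000 bp upstream of TAS1C, a locus of the same kind.

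At 1 site, chosen after its values were seen, the partners were ribosomal RNA genes. AT3G41761, which has no description, had a downstream score of 588.35. Its peak was also listed within 1000 bp upstream of AT3G41762 and of the 18S ribosomal RNA gene AT3G41768, and 2000 to 3000 bp upstream of AT3G41979, another ribosomal RNA gene. Such genes occur in many near-identical copies, and the deposited score cannot tell the copies apart.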

How the data were processed

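AG-GFP plants and negative control plants had 2 libraries each, grouped by genotype, and control libraries were matched to AG-GFP libraries by replicate number, per the labels. Coordinates are TAIR10 (submitters' processing notes). The aligner, peak caller and threshold were not stated in the sources used. The deposited peak list gives a Poisson score per peak, and the authors' deposited target table gives the highest score per gene and region, per the file headers. The position and score headers are exchanged in the peak list: all 1421 values under the score header lie inside their peak, and columns were read by value.

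A score was linked to the peak of equal score (within 0.006) lying in that region of the gene, with 500 bp of slack, using RefSeq gene spans (TAIR10.1; 1916 of 1958 genes matched). Of 2123 entries, 2085 were linked. Tested on simulated data (2065 entries of 1912 genes), all links were right (100.0%). The simulated regions were made from the same RefSeq spans and peaks, so this checks the code and not the accuracy in these data. This linking was added after the repeated scores were seen. Classes came from keywords in each deposited description before its similarity clauses. No test was run, since the scores chose the genes. The rule names the 10 highest, the 5 lowest, list members and partners, the 10 highest listed for no other gene and the 12 highest transcription factors. Other genes named were chosen after their values were seen. Members, lists and rules were chosen with earlier results of these data known. CArG boxes were not searched, as no genome sequence was used. Python 3.11.15, numpy 2.4.6, pandas 2.3.3, scipy 1.17.1 and matplotlib 3.10.9 were used.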

Additional observations from a re-analysis of the deposited data

How the results depend on the processing

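Applied only to scores at or above the median peak, the rule gave 173 downstream-only genes in place of 336. Of the 336 themselves 161 reached that score, so the 173 include genes with weaker sites in other regions. With the downstream score as the gene's highest it gave 355, and with RefSeq-matched genes 330. Counted as scores per chromosome, the genes rested on 255 peaks, against 57 with scores that occur once in the list and 310 by score and position. The share with an upstream site at another gene was 88.4% by score alone, 68.2% with the nearest 1000 bp only, 77.0% with scores that occur once, 87.0% at or above the median peak and 53.9% with the gene adjacent in the gene table. Alternatives chosen after seeing the data gave 67.0% by score and position, 69.0% over distinct peaks and 66.3% for peaks beyond the RefSeq span. The share listed for no other gene was 4.46% by score alone, 10.0% with no other protein-coding span or flank of 3000 bp, and, chosen after seeing the data, 18.8% by score and position and 16.1% without scores that recur in an unlinked row. Score matches on a chromosome include unrelated peaks, so the first figures run high for the shared and low for the unshared. The median score was 133.69 per gene and 138.72 per peak. RNA genes numbered 13 by description and 16 by gene type. Transcription factors were 10.1%, or 11.0% with whole descriptions. RefSeq products are not in the gene table, so that alternative used gene types only. No paired analysis was possible because the tables hold no value per library, and the depth behind a score is unknown.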
